A study of Pleurotus ostreatus with 32 samples.

Results

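The step from the stage 3 primordium to the young fruiting body was examined in the oyster mushroom Pleurotus ostreatus with 12 of the 32 RNA sequencing libraries of the series. They were chosen by their labels: 6 libraries of young fruiting bodies (3 of cap and 3 of stipe) and 6 of stage 3 primordia (3 of cap and 3 of stipe). All 12 came from the dikaryotic strain N001, kept as spawn culture in plastic bags. The air was held at 18 to 19 °C with a relative humidity of 80 to 85%, and the daily light period was 8 h, followed by 16 h of dark. Each replicate pooled tissue of 3 to 8 fruiting bodies, so a library gives an average over several bodies and not the spread among single ones. The labels do not say whether the cap and the stipe of a replicate number came from the same bodies, and p-values measure the spread between these pools. No age in days is given for either stage.

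In cap-and-stipe mushrooms the primordium is the compact body in which cap, stipe and the future gills are laid out. Growth to the mature mushroom then rests largely on enlargement of cells already present, above all in the elongating stipe, while spores form on the lamellae, the gills under the cap. A dikaryon, whose cells hold nuclei of both mating partners unfused, is the form of the fungus that fruits. The question put to the data was which genes change in cap and stipe alike between the stages, so stage was tested over all genes with tissue as a covariate.

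The files identify genes by number only and do not pair the numbers with names, so what the genes encode is not reported and no sequence is shown. At most 2 genes that rose and 2 that fell are therefore given by number, and the others are described as groups. Levels are given as CPM, counts scaled to one fixed library total with TMM factors over all 32 libraries, and differences as log2 fold changes ± SE. The SE was derived from the test, as the absolute log2 fold change divided by the square root of its F statistic. In these samples of whole tissue, fewer cells of a type and less RNA per cell cannot be told apart.

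Total counts ran from 19852063 to 25873833 per library. The number of genes at 1 CPM or more was 9879 ± 55 in stage 3 cap, 9857 ± 92 in young cap, 9753 ± 52.3 in stage 3 stipe and 9788 ± 116 in young stipe (SD, n = 3 each). The mean difference between young and stage 3 libraries was 6.17 genes (exact permutation test within tissues, two-sided, p = 0.895, where the smallest possible p is 0.005). The share of counts in the 10 most abundant genes was 6.24% ± 0.448 in stage 3 cap, 5.57% ± 1.4 in young cap, 8.28% ± 1.67 in stage 3 stipe and 9.42% ± 0.648 in young stipe. That share differed between stages by 0.232 percentage points (same exact permutation test, p = 0.755).

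One library stood apart. Stage 3 stipe replicate 3 differed from the mean of its 2 group-mates by 4-fold or more in 20.2% of the 10515 genes tested, against 0.0571% to 5.16% for the other 11 libraries, and its TMM factor of 0.722 was the lowest, the next being 0.932. Its closest library by rank correlation across genes was young cap replicate 3 (Spearman 0.943), not a stipe. Its tissue label was checked with gene lists from other libraries. By the mean of 199 cap genes minus that of 161 stipe genes found in young bodies, it scored -1.59 log2 units, beside -1.87 and -2.06 in the other stage 3 stipes and 1.95 to 2.52 in the stage 3 caps. By 692 cap and 845 stipe genes found in the other 5 stage 3 libraries it scored 1.08, on the side of the caps, where young caps scored 0.227 to 1.57 and young stipes -2.16 to -0.601. The stipe side of that list rests on 2 libraries only, its group-mates. Of the 63 genes called in the stage step, 2 were 4-fold or more off their group-mates in it. A gene far off in this library has more residual spread and is less easily called. The call itself thus favoured a low count. Counts of calls are given with and without this library. Young stipe replicate 2 was closest to stage 3 stipe replicate 1, and stage 3 cap replicate 3 and young cap replicate 3 were closest to each other, while the other 8 libraries were closest to a library of their own group.

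**Figure D1:**
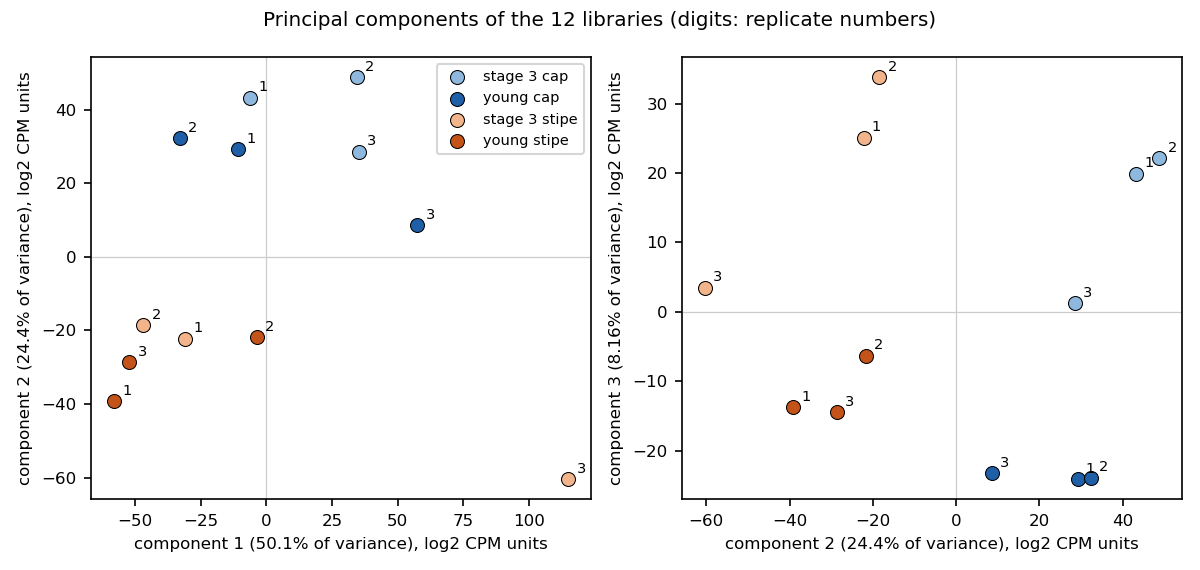
Principal components of log2 CPM over 10515 genes, left components 1 and 2, right components 2 and 3; each point is a library, the colour gives stage and tissue and the digit the replicate number. Stage 3 stipe replicate 3 lies alone at 114.9 on component 1, component 2 parts the caps from the stipes, and on component 3 the stage 3 libraries (1.29 to 33.8) lie above the young ones (-24.1 to -6.32).

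Component 1 of the 12 libraries held 50.1% of the variance and set stage 3 stipe replicate 3 (114.9) and young cap replicate 3 (57.5) apart from the other libraries (-58.1 to 35.1), without parting the stages. Component 2, with 24.4%, parted cap from stipe. Stage 3 stipe replicate 3 lay on the side of the stipes there, at -60.3, with the other stipes from -39.2 to -18.5 and the caps from 8.56 to 48.8. It was itself among the libraries that set this component. Stages were parted on component 3, with 8.16% of the variance, where the 6 stage 3 libraries lay from 1.29 to 33.8 and the 6 young ones from -24.1 to -6.32 with no overlap.

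From stage 3 primordia to young fruiting bodies 51 genes rose and 12 fell in the fit with stage and tissue (2-fold or larger, with an adjusted p under 0.05 in the quasi-likelihood test of edgeR). These 63 genes were 0.599% of the 10515 tested, 0.485% rising and 0.114% falling. The rises had a median log2 fold change of 1.66, with 9 of 51 genes at 4-fold or more and 2 of 51 at 8-fold or more. The falls had a median of -1.49, with 5 of 12 genes at 4-fold or more and 3 of 12 at 8-fold or more. Over all genes tested the median log2 fold change was -0.015 and the quartiles were -0.33 and 0.25.

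How many genes were called rested on single libraries, while most genes called with all libraries were still called without the one that stood apart. Without stage 3 stipe replicate 3, 112 genes rose and 36 fell (148 in all, 1.40% of those tested), and they included 48 of the 51 rising and all 12 of the falling genes. The total was 24 without stage 3 cap replicate 1, 27 without stage 3 cap replicate 2, 39 without stage 3 stipe replicate 2, 35 without young cap replicate 1, 36 without young cap replicate 2, 27 without young stipe replicate 1 and 35 without young stipe replicate 3. In each of these fits more genes rose than fell. Over the 12 fits that left out a library, 16 to 48 of the rising and 6 to 12 of the falling genes stayed called. The fewest rising genes stayed called without stage 3 cap replicate 1. Of the 63 genes, 13 of the rising and 6 of the falling ones were called in all 12 fits that left out a library. With no tissue term in the fit 6 genes were called, 4 higher and 2 lower.

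**Figure D2:**
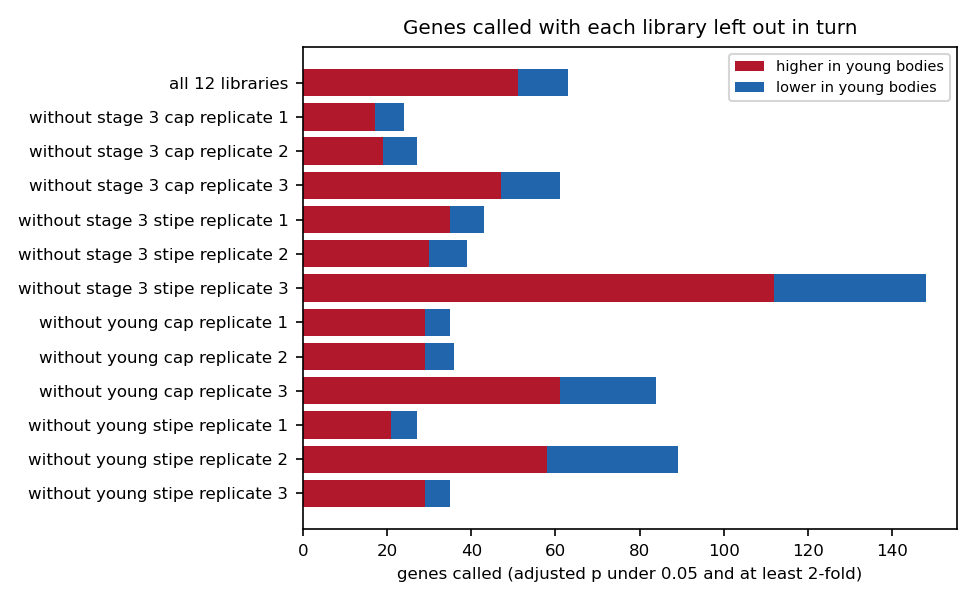
Genes called in the stage step (horizontal axis, number of genes) with all 12 libraries and with each library left out in turn (vertical axis); red counts genes higher and blue genes lower in young bodies. The total runs from 24 without stage 3 cap replicate 1 to 148 without stage 3 stipe replicate 3, and the red part is the longer one in every bar.

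Size of change without a test gave another picture. Irrespective of p, 191 genes were 2-fold or more higher in young bodies and 338 were 2-fold or more lower. Of those 338 genes, 207 (61.2%) were 4-fold or more above their group-mates in stage 3 stipe replicate 3, a feature of 11.8% of all genes tested. High values in that library raise the stage 3 level, so part of this excess follows from arithmetic. Of the 191 higher genes, 17 (8.9%) were 4-fold or more below their group-mates in that library, against 8.34% of all genes tested. Without that library 241 genes were 2-fold or more higher and 140 lower, and the larger number lay on the other side.

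Among genes that rose, gene 7202 had the largest change that met the rule for naming. Its stage 3 cap libraries held 2.19, 2.88 and 8.20 CPM (replicates 1 to 3), and its young cap libraries 51.06, 28.6 and 89.8 CPM. In stipe the stage 3 libraries held 4.57, 17.9 and 44.8 CPM and the young ones 233, 155 and 190 CPM. Every young library of a tissue lay above every stage 3 library of that tissue. The rule for naming required such a lack of overlap of each gene given by number. The highest stage 3 stipe value was that of the library standing apart. The shared log2 fold change was 3.44 ± 0.53 (edgeR, adjusted p = 0.0139), and the gene was also higher in stipe than in cap in the same fit, by a cap minus stipe value of -2.06 ± 0.50 (adjusted p = 0.0212). In mature tissue, which the comparison did not use, it reached 9489 ± 2953 CPM in cap and 7293 ± 906 CPM in stipe, against 7.51 ± 4.51 in stage 1 primordia and 34.5 ± 12.3 in lamellae (SD, n = 3). Per length, in the authors' FPKM, its mean was 6.21 in stage 3 cap, 31.4 in stage 3 stipe, 79.1 in young cap and 269.8 in young stipe. Its counts were fractions in 1 of the 12 libraries and in 9 of all 32, as can occur when reads are shared between genes, and this was not tested.

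Gene 12176 rose from 0.33, 0.262 and 1.18 CPM in stage 3 caps to 11.3, 5.34 and 6.53 CPM in young caps. In stipe it went from 5.97, 12.7 and 7.94 CPM to 57.04, 34.7 and 66.5 CPM. The tissues differed so much that young cap replicates 1 and 3 lay within the range of the stage 3 stipes and replicate 2 below it. Within each tissue the stages did not overlap, as the rule for naming required. Its shared log2 fold change was 3.12 ± 0.42 (edgeR, adjusted p = 0.0118), with a cap minus stipe value of -3.31 ± 0.43 (adjusted p = 0.000422). Mature cap held 959.6 ± 413 CPM and mature stipe 768 ± 390 CPM, against 9.34 ± 6.46 in stage 1 primordia and 7.94 ± 4.23 in lamellae (SD, n = 3). Both rising genes lost their call in edgeR when the tissue term was dropped, with an adjusted p of 0.211 for gene 7202 and 0.484 for gene 12176.

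Among genes that fell, gene 9092 changed most. It held 255, 64.8 and 20.9 CPM in the stage 3 caps and 1.73, 1.55 and 1.48 CPM in the young caps. In stipe it went from 131, 36.9 and 28.07 CPM to 1.31, 4.99 and 6.21 CPM. The groups did not overlap, and the stage 3 libraries of each tissue spread over several-fold with replicate 1 the highest in both. The shared log2 fold change was -5.01 ± 0.78 (edgeR, adjusted p = 0.0158), and cap and stipe were not called different (-0.27 ± 0.69, adjusted p = 0.883). Its size rested in part on stage 3 cap replicate 1, without which the log2 fold change was -4.31 (edgeR, adjusted p = 0.0198), and it was -4.15 with limma on log2(FPKM + 1). Stage 1 primordia held 657.5 ± 324 CPM, mycelium 7.45 ± 3.21 and mature cap 0.300 ± 0.206 CPM (SD, n = 3).

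Gene 9830 fell from 235, 73.03 and 31.9 CPM in stage 3 caps to 5.37, 5.70 and 7.66 CPM in young caps. In stipe it fell from 121, 51.3 and 52.4 CPM to 3.50, 5.28 and 7.86 CPM. Here too the stages did not overlap and replicate 1 was the highest stage 3 library of each tissue. Its log2 fold change was -3.94 ± 0.48 (edgeR, adjusted p = 0.0118), with no call between cap and stipe (0.35 ± 0.43, adjusted p = 0.709). It held 833 ± 551 CPM in stage 1 primordia and 0.913 ± 0.456 CPM in mature cap, but 65.5 ± 28.0 CPM in lamellae (SD, n = 3). All 4 genes stayed called in each of the 12 edgeR fits that left out a library, with adjusted p-values up to 0.0499. Their choice by size of change and lack of overlap in these same libraries favoured this.

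**Figure D3:**
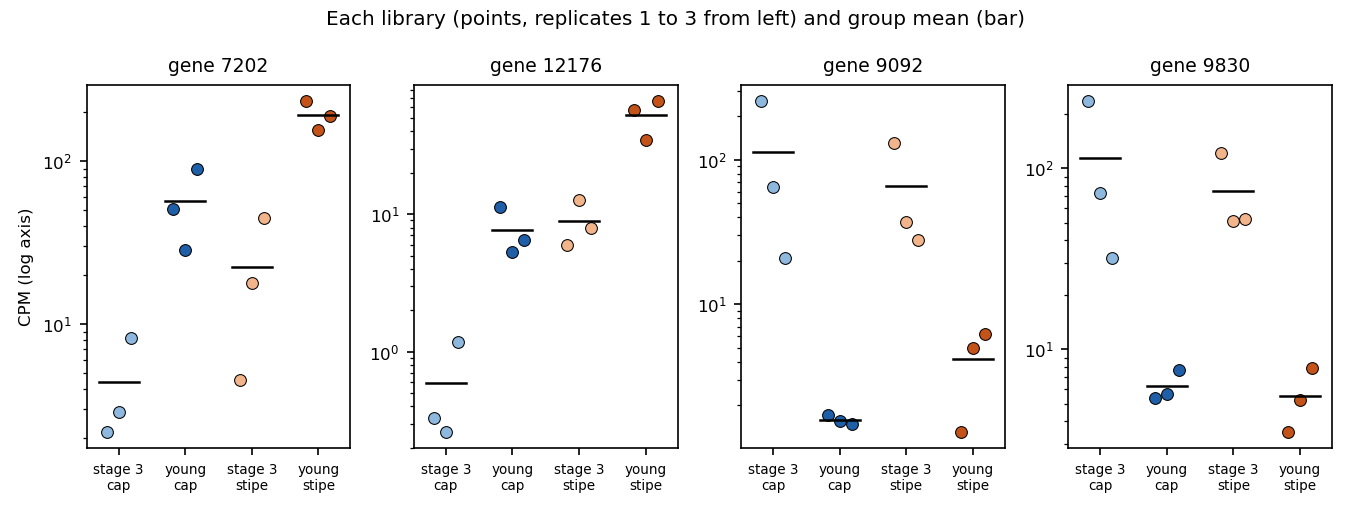
CPM of the 4 genes given by number (vertical log axis) in stage 3 and young cap and stipe; points are libraries, with replicates 1 to 3 from left to right, and bars are group means. Within each tissue the young libraries lie above all stage 3 libraries for genes 7202 and 12176 and below all of them for genes 9092 and 9830. The rule for naming required this lack of overlap.

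The 51 rising genes covered a wide range of abundance. Their mean over the 12 libraries ran from 1.26 to 879 CPM with a median of 29.9, beside 26.8 for all genes tested, and 5 of 51 (9.8%) were at 100 CPM or more, against 22% of all genes. Across the rising genes, the median of group means went from 8.88 to 30.6 CPM in cap and from 13.7 to 43.3 CPM in stipe. The 12 falling genes had a median of 36.2 CPM over the 12 libraries, and the median of their group means went from 90.4 to 11.99 CPM in cap and from 27.4 to 7.53 CPM in stipe. Of the 63 genes, 47 of the 51 rising and all 12 falling had no overlap between stages within cap and within stipe, which 1.63% (rising) and 0.799% (falling) of all genes tested showed. The genes were chosen by their stage difference in these same libraries, so the lack of overlap and the medians by library that follow are a description. Library by library, the median of the rising genes relative to their own mean over the 12 libraries was -1.26 to -0.783 log2 units in stage 3 caps, 0.292 to 0.698 in young caps, -0.53 to -0.412 in stage 3 stipes and 0.932 to 1.28 in young stipes. Young cap replicate 3 was the lowest young library by this measure and stage 3 cap replicate 2 the lowest stage 3 library. For the falling genes it was 0.821 to 1.66 in stage 3 caps, -0.761 to -0.313 in young caps, 0.303 to 0.614 in stage 3 stipes and -1.85 to -0.757 in young stipes. Fractional counts occurred in 7 of the 51 rising genes and 1 of the 12 falling ones in any of the 12 libraries, against 16.5% of all genes tested.

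**Figure D4:**
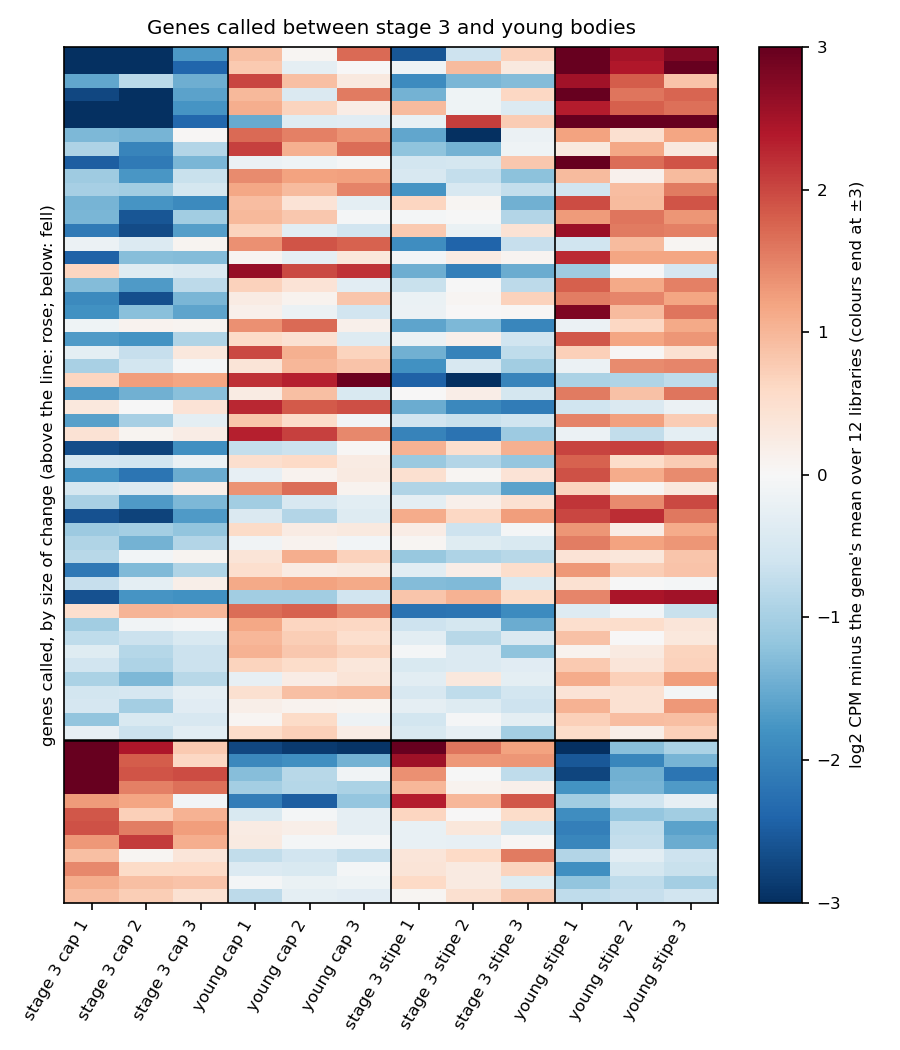
The 63 genes called (rows, ordered by size of change, risen above the line and fallen below it) in the 12 libraries (columns); colour gives log2 CPM minus the mean of the gene over the 12 libraries, with colours ending at ±3. Within each tissue the young columns are mostly redder than the stage 3 columns above the line and bluer below it, as the choice of genes fixes, and many rising genes also differ between cap and stipe.

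Cap and stipe were then taken apart to see in which tissue the step was made. With the 4 groups fitted as separate means, edgeR called 0 genes in cap (0% of those tested, 628 at an unadjusted p under 0.05, lowest adjusted p = 0.0707) and 0 in stipe (0%, 1047 at an unadjusted p under 0.05, lowest adjusted p = 0.0757). DESeq2 called 110 genes in cap and 119 in stipe, and limma with a weight for each library 356 and 350. In edgeR without stage 3 stipe replicate 3 there were 36 genes in cap and 14 in stipe, and 8 in cap without stage 3 cap replicate 3. The 51 rising genes had a median log2 fold change of 1.72 in cap and 1.65 in stipe, and 42 of the 51 were at 2-fold or more in both. The 12 falling genes had medians of -1.51 in cap and -1.57 in stipe, and all 12 were at 2-fold or more in both. These values come from the libraries that chose the genes and are given as a description.

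Whether the step differed between cap and stipe was tested as an interaction. edgeR called 0 of 10515 genes (0%; 200 genes at an unadjusted p under 0.05), limma with library weights called 0 and DESeq2 called 2. In edgeR the count was 0 with each of the 12 libraries left out. Of the genes called in the shared step, 5 of 51 rising (9.8%) and 0 of 12 falling had an unadjusted edgeR interaction p under 0.05. Over all genes tested the share was 1.9%, which is below what such a threshold gives with no interaction. The 0 calls thus do not show that the step was alike in both tissues. The interaction of gene 12176 was 1.098 log2 units (adjusted p = 1), with a step of 3.72 ± 0.60 in cap and 2.62 ± 0.55 in stipe.

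Tissue marked many of the rising genes. In the same fit 693 genes differed between cap and stipe (6.59% of those tested), 373 higher in cap (3.55%) and 320 higher in stipe (3.04%), compared with 63 for stage. Of the 51 rising genes, 22 were higher in stipe and 7 in cap. The 7 had cap minus stipe values of 1.03 to 3.59 and a median stage step of 1.67. The 22 had a median cap minus stipe value of -1.86 log2 units and a median stage step of 1.78. Of the 12 falling genes, 4 were higher in cap and 0 in stipe. Both terms share the residual spread of a gene, and a gene with little spread is more easily called in both. Without stage 3 stipe replicate 3 the tissue term held 1191 genes (682 higher in cap, 6.46%, and 509 in stipe, 4.82%), and of the 51 rising genes 23 were higher in stipe and 8 in cap. Scaling by library size alone in place of TMM shifted the median of the tissue term by 0.13 and gave 502 genes higher in cap against 256 in stipe.

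Libraries outside the comparison were used to ask where these genes stand earlier and later. Mature cap and stipe were tested against stage 1 primordia, the earliest primordium stage in the series, with 9 libraries of which none served in the stage step. There 4019 of 10394 genes differed, 1979 higher in mature tissue (19.0%) and 2040 lower (19.6%). Of the 51 genes that rose between stage 3 and young bodies, 48 (94.1%) were higher in mature tissue than in stage 1 primordia and 0 lower. Of the 12 that fell, 12 were lower and 0 higher. The median log2 fold change from stage 1 to mature was 3.31 in the rising and -4.53 in the falling genes, against -0.039 over all genes tested. The 3 rising genes without a call there had log2 fold changes of 0.57, 0.047 and -0.86. Scaling by library size alone shifted the median log2 fold change over all genes by -0.225 and gave 1531 genes higher and 2646 lower, and the counts were then 47 of 51 and 12 of 12. Among the genes called without stage 3 stipe replicate 3, 101 of 112 rising ones (90.2%) were higher in mature tissue and 33 of 36 falling ones (91.7%) were lower.

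By medians, the rising genes were high in the mature cap, stipe and skin, and lower in the mature lamellae and in the dedifferentiated cap, a group that the labels name without explanation, though single genes differed. The median of their group means was 255 CPM in mature cap, 282 in mature stipe and 196 in skin, but 34.5 in lamellae, 40.0 in the dedifferentiated cap (n = 2 libraries), 37.1 in mycelium and 14.6 in stage 1 primordia. In 39 of the 51 genes every lamella library lay below every mature cap library, which was the case for 2624 of the 10515 genes tested (25%), and in 3 of 51 every one lay above, against 26.4%. For the dedifferentiated cap all libraries lay below in 38 of 51, against 30.8%, and above in 10 of 51, against 31.5%. Skin libraries all lay below in 26 of 51, against 14.0%, while in 12 of 51 every skin library lay above, against 14.3%. Among the 7 groups outside the comparison, the highest mean of a rising gene was in mature cap for 15 genes, in mature stipe for 15, in the dedifferentiated cap for 8, in skin for 7, in lamellae for 3, in mycelium for 3 and in stage 1 primordia for 0. Over all 10515 genes tested these numbers were 973, 1334, 2047, 462, 1420, 2273 and 2006 in the same order. Stage 1 held the lowest mean for 25 of the 51, and for 1996 of all genes tested. All of these counts share the mature cap libraries. By the medians of group means, young cap (30.6 CPM) and young stipe (43.3 CPM) lay between stage 3 primordia and mature cap and stipe. Their place above stage 3 was fixed by the choice of genes.

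By the median of group means, the falling genes were highest in stage 1 primordia. That median was 222 CPM there, 14.7 CPM in mycelium, 2.73 CPM in mature cap, 4.16 in mature stipe, 6.19 in skin, 11.1 in lamellae and 15.5 in the dedifferentiated cap. The highest mean of the 7 groups was in stage 1 for 7 of the 12, against 2006 of the 10515 genes tested. It was in mycelium for 3 of the 12, a share near that of all genes (2273), and in the dedifferentiated cap for 2 of the 12. In 7 of the 12 genes every lamella library lay above every mature cap library, against 26.4% of all genes tested. This was so for the dedifferentiated cap in 8 of 12, against 31.5%, and for skin in 6 of 12, against 14.3%. Every library lay below in 1 of 12 for lamellae, 0 of 12 for the dedifferentiated cap and 0 of 12 for skin. These counts too share the mature cap libraries. In mycelium the 12 genes ranged from 1.22 to 22920 CPM, so the group was not uniform there.

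**Figure D5:**
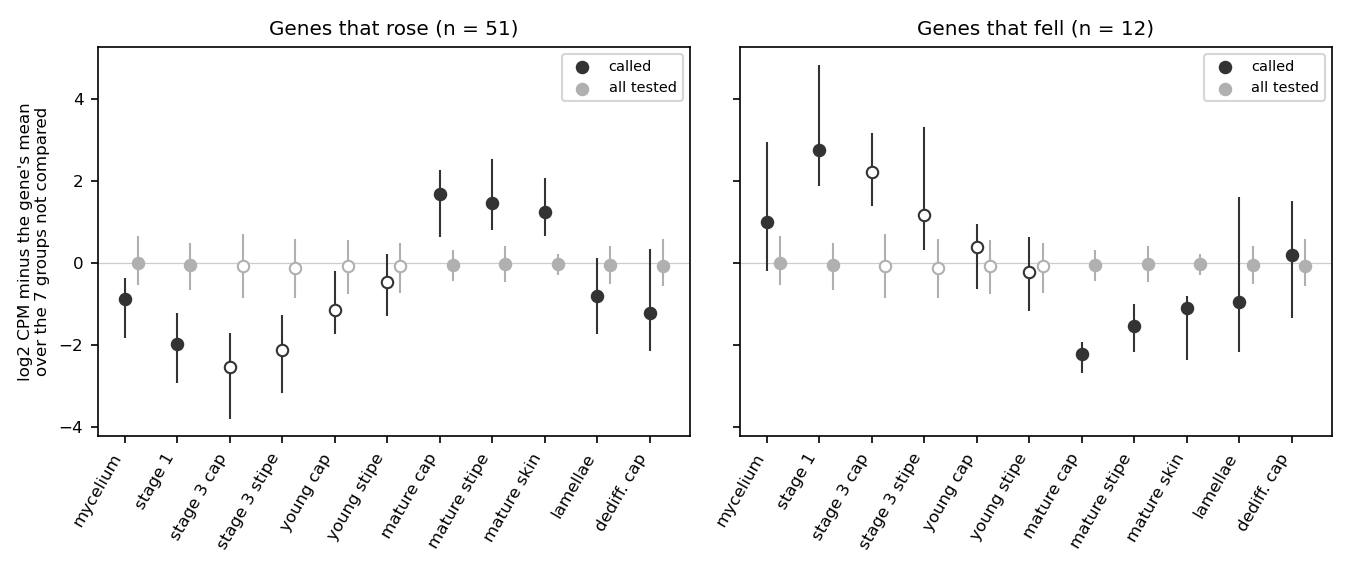
Median (points) and quartiles (bars) over genes of log2 CPM minus the mean of the gene over the 7 groups outside the comparison, for the 51 genes that rose (left) and the 12 that fell (right), with all genes tested in grey; open points are the groups of the comparison, and dediff. cap is the dedifferentiated cap. The rising genes stand at 1.67, 1.46 and 1.24 in mature cap, stipe and skin and at -1.97 in stage 1 primordia, and the falling genes at 2.75 in stage 1 primordia and -2.21 in mature cap.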

How the data were processed

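Per the submitters' processing notes, STAR, featureCounts, R 3.0.2, edgeR 3.4.2 and limma 3.18.13 were used by the authors; the sources used here give no settings, and of the genome only the label PleosPC15, in the name of the deposited FPKM table. Libraries were strand-specific and made from poly(A) RNA, per the labels' protocols, and the authors deposited expected counts for 12329 genes per library, in part fractional (95.2% of values above 0 whole within 1e-06), and a table of log2 FPKM for 10755 of them. None (0) of the gene numbers matched the 11849 entries of the reference gene list, which is of an assembly of strain PC9.

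Counts were rounded, filtered with filterByExpr (10515 genes, at least 99.992% of counts), scaled by TMM and fitted with edgeR 4.0.16 (R 4.3.3) as tissue plus stage over 12 libraries (robust quasi-likelihood fit with 9 residual degrees of freedom; biological coefficient of variation 0.407). Cap and stipe steps and the interaction came from a fit of 4 group means, and stage 1 against mature tissue from 9 libraries. A gene was called when its adjusted p (Benjamini-Hochberg) was below 0.05 with at least a 2-fold change, with no fold threshold for the interaction. Log2 CPM carried a prior count of 2. The edgeR fits alone were tested on simulated data. For the stage step these data held no tissue difference and no library standing apart, unlike the real ones.

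Genes given by number are the 2 that rose and the 2 that fell of largest log2 fold change, taken from called genes whose mean count was at least 10 in each stage and with no overlap of stages within cap and within stipe. The comparison and these rules were chosen with earlier results of these data known. Alternatives used DESeq2 1.42.0 and limma 3.58.1. No replicate libraries held identical counts, and within groups chi-square per degree of freedom was 61.09 or more, so each library counted once. Of 18 pairs of libraries with the same replicate number in different groups, 11 deviated together at a correlation over 0.1. Pairs with different numbers also passed 0.1 in part, with correlations from -0.806 to 0.693, so the count of 11 alone does not mark a link by number. Of the 12 libraries, 9 deviated most like a library of their own number in another group. The labels do not say that the numbers pair libraries, so the fit reported took the libraries as unpaired. Whether a replicate number marks a shared origin was not tested, and counts with it as a block are given below.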

Additional observations from a re-analysis of the deposited data

How the results depend on the processing

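For the shared stage step, 63 genes in the fit reported, the count was 14 at a 4-fold threshold, 6 with no tissue term, 126 (84 higher, 42 lower) with all 32 libraries in the fit, 201 (129 higher, 72 lower) with the DESeq2 test, 394 (229 higher, 165 lower) with limma and library weights, in which stage 3 stipe replicate 3 had a weight of 0.107, and 170 (117 higher, 53 lower) with stage 3 stipe replicate 3 and young cap replicate 3 both left out, a choice made after seeing the data. The cap step, 0 in the fit reported, gave 27, 110, 356 and 76 genes under the all-library, DESeq2, weighted and 2-library settings, the stipe step 28, 119, 350 and 51, and the interaction 2 genes with DESeq2; the cause was not tested. Leaving out 1 library gave 24 to 148 genes in the shared step, 0 to 36 in cap, 0 to 14 in stipe, 0 in the interaction, 535 to 1191 in the tissue term and 3744 to 4378 from stage 1 to mature tissue. The rising genes higher in mature tissue then numbered 47 to 48, the falling genes lower there 12, the difference in genes detected ran from -20.7 to 36.8 and that in the share of the 10 most abundant genes from -0.174 to 0.659 percentage points. The replicate number as a block gave 64 genes (50 higher, 14 lower), of which 41 of the rising and 10 of the falling genes were among those called without it, and changed no other count of calls by over 1.5 times, while genes with an unadjusted interaction p under 0.05 went from 200 to 306; 9 of 12 libraries deviated most like a library of their own number in another group, and same-number correlations ran from -0.605 to 0.878. Correlations of pairs with different numbers ran from -0.806 to 0.693. With 3 libraries a group, precision is limited by the spread between libraries, whose median SD of log2 CPM was 0.648 in stage 3 stipe and 0.305 to 0.371 in the other groups.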

Other observations

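Stage 3 stipe replicate 3 set 1245 genes 4-fold or more above and 877 genes 4-fold or more below the mean of its group-mates. Over those 1245 genes, the median distance from the gene's median over all 32 libraries was 2.32 log2 units in that library, 1.21 in young cap replicate 3, 0.741 in stage 3 cap replicate 2 and 0.697 in stage 3 cap replicate 3, beside 0.037 and -0.449 in young cap replicates 1 and 2. Over the 877 genes it was -2.46 in that library, -1.09 in young cap replicate 3, -0.75 in stage 3 cap replicate 3, -0.60 in stage 1 primordia replicate 1, -0.54 in lamellae replicate 2 and -0.33 in stage 3 cap replicate 2, so the order of libraries was not the same for both sets. Of the genes called in the stage step, 2 of the 51 rising genes were among the 1245 and 0 among the 877, and 0 of the 12 falling genes were in either set. Genes of both sets have more residual spread in the fit and are less easily called, so low counts were favoured by the call itself.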
